A study of Mus musculus with 7 samples.

Results

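Cytosolic ribosomal protein genes were followed on 7 one-colour microarrays of activated mouse CD8 T cells. Members were the non-control probes whose gene name in the scanner files begins with Rpl, Rps or Rplp followed by a number, together with Rpsa. Names of the S6 kinase family (20 probes) and names marked as pseudogenes (6 probes) were left out. The rule found 191 of 55681 non-control probes, on 200 spots. They carry 86 gene names: 31 small subunit proteins, 43 large subunit proteins, 3 acidic stalk proteins, 8 paralogs and Rps19bp1, which matches by name only and encodes a partner of Rps19 rather than a ribosomal protein. The other 85 genes are described here. Of the member probes, 188 passed the filter, being well above background on 3 arrays or more, and 186 were well above background on all 7. The 2 probes of Rpl10l and the single probe of Rpl3l did not pass, which left 83 of the 85 genes among the 14824 genes tested.

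All cells were lymph node T lymphocytes from OT-1het Rag-/- mice, cultured with 100 nM of the ovalbumin peptide SIINFEKL for 24 h. OT-1 is a transgenic T cell receptor for that peptide, and Rag-/- mice form no other T or B cells. In the 3 Lck-/- samples Lck, a kinase that starts T cell receptor signalling, came from a doxycycline-dependent construct and had been removed by taking doxycycline out of the diet for 7 days. The 4 WT samples carry no such statement, so loss of Lck cannot be told apart from the construct or the feeding. The series calls the samples biological replicates.

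A cytosolic ribosome joins a small subunit, which decodes the mRNA, to a large subunit, which forms the peptide bond. Most of its proteins are needed in equal number, and their mRNAs typically start with a run of pyrimidines, the TOP motif, through which mTOR signalling controls their translation. A T cell that meets antigen makes more ribosomes before it divides.

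The start sites of members spread over both subunits show this run. In each line 20 bases lie before the annotated start and 10 from it, 5′ to 3′, and the capitals mark an unbroken run of pyrimidines that begins at the start with a C (RefSeq, GRCm38.p6).
Rps6, chr4:86857358-86857387, minus strand: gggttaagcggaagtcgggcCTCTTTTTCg
Rps15a, chr7:118116138-118116167, minus strand: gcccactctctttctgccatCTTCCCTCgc
Rps21, chr2:180257359-180257388, plus strand: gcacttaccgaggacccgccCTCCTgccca
Rpl15, chr14:18270977-18271006, minus strand: ggattgtgggagaaagccttCTTCCTTTCC
Rpl28, chr7:4792945-4792974, plus strand: tcgtcccgcctctcgtgtctCTCTTTCCgt
Rplp2, chr7:141447631-141447660, plus strand: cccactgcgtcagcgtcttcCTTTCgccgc

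Of the 85 genes, 64 had a promoter in the RefSeq table, in 76 windows of 300 bases. A C at the annotated start followed by 4 bases that are each C or T stood in 13 of the 76 windows (17.1%), against 2.51% of 32851 windows of all genes. CCGGAAG, a sequence bound by ETS family factors, stood on either strand in 27 windows of 26 genes (35.5%), against 8.86% of all windows. AAGATGGC, a sequence bound by YY1, stood on either strand in 8 windows of 6 genes (10.5%), against 2.75%. A match describes the letters only, and annotated starts can lie some bases from the true one.

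Rps7 and Rpl31 show the ETS letters, in capitals in the 30 bases printed. CTTCCGG is the same motif read on the other strand.
Rps7, motif first base at position -14 from the start: ttttcagaagagCTTCCGGtttccacccac
Rpl31, motif first base at position 9 from the start: cctccccgtgacCCGGAAGttgtacggcta

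A pair of arrays went against their labels in the targeted gene, so samples are named below as labelled. Values are log2 processed signal minus the 75th percentile of the array. Lck stood at 8.02, 6.21 and 6.17 on the arrays labelled Lck-/- 1, 2 and 3, against 7.44, 7.67, 7.36 and 6.04 on those labelled WT 1, 2, 3 and 4. The array labelled Lck-/- 1 was thus above all WT arrays, and WT 4 was below all Lck-/- arrays. Whether the probe lies outside the altered part of the gene was not tested. The 75th percentile of processed signal ran from 354 to 615 units. No spot was saturated. The share of spots well above background was lowest on WT 1 (46.6%) and highest on Lck-/- 1 (61.1%). All arrays were on 1 slide, and their number limits the precision. All 9 CD8 T cell markers were tested. Of 11 NK cell markers 10 were tested. Their mean level was -1.51, 0.03 and -1.27 on the arrays labelled Lck-/- 1 to 3, against -2.52, -1.99, -3.08 and -0.43 on WT 1 to 4. The WT 3 mean leaves out Fcer1g, which had no value there. Fcer1g was among the brighter of these markers, at -0.36 on WT 1 and 1.17 on WT 4.

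No ribosomal protein gene passed the test between the arrays labelled Lck-/- and WT. The lowest adjusted p among the 83 was 0.723, and none of them was called by limma at an adjusted p of 0.05, against 0.0% of all 14824 genes. At an unadjusted p under 0.05, 0 of 83 passed, against 7.13% of all genes. In 7 of the 83 the values of the 2 groups did not overlap, against 7.24% of all genes. All 7 were higher on the Lck-/- arrays (5.09% of all genes did not overlap in that direction): Rps7, Rps9, Rps18, Rpl15, Rpl21, Rpl28 and Rpl36al.

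The intervals of most members were narrow. A 95% interval lay wholly within a 2-fold change in either direction (1 on the log2 scale) for 80 of the 83 genes (96.4%), against 78.9% of all genes and 93.7% of the 1483 genes above the 90th percentile of mean signal. It lay within 0.5 on the log2 scale for 55 (66.3%), against 29.96% of all genes, 48.8% of the genes above the 90th percentile of mean signal and 82.1% of the mitochondrial ribosomal protein genes. The 3 genes whose interval passed a 2-fold change were Rps14, Rps21 and Rpl39l. The median SD within groups was 0.16 for ribosomal protein genes, 0.25 for all genes, 0.19 for the genes above the 90th percentile and 0.16 for the mitochondrial ribosomal protein genes.

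The differences, Lck-/- minus WT, were small and mostly positive. Their median was 0.08 on the log2 scale over the 83 genes, with quartiles of 0.02 and 0.13, and 72 of 83 were above 0. Over all genes the median was 0.04 and 57.5% were above 0, and over the genes above the 90th percentile of mean signal it was 0.07, with 996 of 1483 above 0. In bulk RNA a lower share of a cell type and less RNA per cell cannot be told apart. The sign of the median followed the scaling. It was -0.02 after quantile normalization, -0.13 after median centring (all genes -0.16) and -0.04 in the authors' deposited values. In these, 41.0%, 15.7% and 39.8% of the members were above 0, against 52.1%, 25.8% and 48.2% of all genes. Another background correction with quantile normalization gave a median of -0.01. Spot mean signal without background subtraction kept it at 0.09, with 91.6% of the members above 0 against 56.9% of all genes. Over 6 scalings 63 of the 83 genes changed sign, 13 stayed above 0 and 7 stayed below 0.

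Members tended to shift together from array to array. Set against each gene's WT mean, their median deviation was 0.23, -0.01 and 0.03 on the arrays labelled Lck-/- 1, 2 and 3, against -0.02, 0.18, -0.13 and -0.02 on WT 1 to 4. Over all genes tested the median was 0.03, 0.09 and -0.01 on Lck-/- 1 to 3, against 0.07, 0.03, -0.15 and 0.05 on WT 1 to 4. The median over all genes was thus low on WT 3 as well. On Lck-/- 1, 73 of 83 genes stood above their WT mean, and on WT 2, 76 did. On WT 3 it was 13, on Lck-/- 2 and 3 it was 34 and 54, and on WT 1 and 4 it was 29 and 36. Of all 14824 genes, 7882 stood above their WT mean on Lck-/- 1, 8097 on WT 2 and 3746 on WT 3. The member medians of the groups overlapped, with Lck-/- 1 highest in one and WT 2 in the other. Leaving out Lck-/- 1 brought the median difference to 0.01, with 44 of 83 genes above 0, and leaving out WT 2 brought it to 0.14, with 80 above 0. Without both arrays whose Lck signal went against the label, 44 of 83 genes were above 0 and none was called.

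Other measures moved with these arrays. The genes above the 90th percentile of mean signal deviated by 0.23, 0.03 and -0.05 on Lck-/- 1 to 3, against 0.05, 0.05, -0.11 and 0.00 on WT 1 to 4. Lck-/- 1 and WT 3 were thus displaced in bright genes as well, while on WT 2 the ribosomal protein genes stood at 0.18 and the bright genes at 0.05. The 9 CD8 T cell markers had mean deviations of 0.51, 0.15 and 0.00 on Lck-/- 1 to 3, against 0.05, 0.12, -0.24 and 0.04 on WT 1 to 4. The WT 3 mean leaves out Cd3e, which had no value there. The part of these other measures in the shift of the ribosomal protein genes was not tested.

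Small subunit genes had a median difference of 0.09, with 27 of 31 above 0 and none called. Rps6, the substrate of S6 kinase, had 9.67, 9.27 and 9.42 on the arrays labelled Lck-/- 1 to 3, against 9.27, 9.33, 9.26 and 9.25 on WT 1 to 4. Only Lck-/- 1 and 3 exceeded all WT arrays, and the groups overlapped. Its difference was 0.17 (SE 0.14, adjusted p = 0.859), and its 3 probes gave differences between 0.15 and 0.17.

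Rps7, which binds the p53 regulator Mdm2, was one of the genes without overlap. It had 8.45, 8.18 and 8.21 on Lck-/- 1 to 3, against 8.01, 7.94, 8.03 and 8.08 on WT 1 to 4. All Lck-/- arrays were higher, the first by the most. The difference was 0.27 (SE 0.13) and did not pass the test (adjusted p = 0.743). Rps9 was likewise higher on every Lck-/- array, with 9.77, 9.41 and 9.48 on Lck-/- 1 to 3 against 9.38, 9.11, 9.38 and 9.31 on WT 1 to 4, and a difference of 0.26 (SE 0.15, adjusted p = 0.786). Rps15a, at 8.85, 8.47 and 8.56 on Lck-/- 1 to 3 against 8.30, 8.55, 8.23 and 8.40 on WT 1 to 4, overlapped through WT 2. Its difference was 0.26 (SE 0.15, adjusted p = 0.787), and its 3 probes gave differences from 0.16 to 0.38. Rps19, the protein most often mutated in Diamond-Blackfan anaemia in humans, had a difference of 0.19 (SE 0.14, adjusted p = 0.852).

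Rps18 had the narrowest range of the members. Its values spanned 0.24 over all 7 arrays: 8.61, 8.67 and 8.62 on Lck-/- 1 to 3, against 8.42, 8.54, 8.57 and 8.46 on WT 1 to 4. The groups did not overlap, and the difference was 0.13 (SE 0.12, adjusted p = 0.883). The other probe of Rps18 gave a difference of 0.31.

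Rps14 and Rps21, each with 1 probe, had the widest ranges among the members, and in both a single array made the range. Rps14 had 9.72, 9.52 and 6.95 on the arrays labelled Lck-/- 1 to 3, against 9.58, 9.87, 9.32 and 9.65 on WT 1 to 4. Lck-/- 3 alone was low, at a processed signal of 59205 against 329400 to 425096 on the other arrays, and its spot carried no non-uniformity flag. The difference was -0.87 (SE 0.62, adjusted p = 0.833), and 0.02 (SE 0.20) without Lck-/- 3. Rps21 had 8.06, 6.52 and 6.92 on Lck-/- 1 to 3, against 6.54, 6.73, 6.65 and 6.64 on WT 1 to 4. Here Lck-/- 1 alone stood far above, and Lck-/- 2 was below all WT arrays. Its difference was 0.52 (SE 0.33, adjusted p = 0.806), and 0.08 (SE 0.17) without Lck-/- 1. No other probe of these genes was there to set beside either value.

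Large subunit genes had a median difference of 0.07, with 39 of 43 above 0 and none called. Rpl21 had the smallest p of all members. It stood at 8.49, 8.26 and 8.17 on Lck-/- 1 to 3, against 8.05, 7.98, 7.99 and 8.08 on WT 1 to 4. Every Lck-/- array was above every WT array, yet the difference of 0.28 (SE 0.13) had an adjusted p of 0.723, and another of its 3 probes gave -0.19.

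Rpl15, a protein of the large subunit core, had 8.96, 8.95 and 9.07 on Lck-/- 1 to 3, against 8.77, 8.92, 8.63 and 8.71 on WT 1 to 4. Its groups were separated by a narrow gap between Lck-/- 2 and WT 2, and the difference was 0.23 (SE 0.13, adjusted p = 0.780). The other probe of Rpl15 gave 0.08. For Rpl28 the values were 9.51, 9.21 and 9.20 on Lck-/- 1 to 3 against 9.12, 9.19, 9.11 and 9.005 on WT 1 to 4. Again the groups did not overlap, with a difference of 0.20 (SE 0.14, adjusted p = 0.825), and the other probe gave 0.12. Rpl31 had 9.30, 8.81 and 8.83 on Lck-/- 1 to 3 against 8.81, 8.84, 8.65 and 8.76 on WT 1 to 4, where Lck-/- 1 alone stood apart, and a difference of 0.21 (SE 0.16, adjusted p = 0.851). Its 5 probes gave differences from -0.10 to 0.21.

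Rpl5 and Rpl11 bind Mdm2 together with the 5S rRNA. Their differences were 0.15 (SE 0.14, adjusted p = 0.887) and 0.01 (SE 0.16, adjusted p = 0.999). Rpl22, whose loss in mice impairs the development of alpha-beta T cells, had 8.70, 8.56 and 8.51 on Lck-/- 1 to 3, against 8.38, 8.76, 8.36 and 8.60 on WT 1 to 4. The groups overlapped throughout, and its difference was 0.06 (SE 0.15, adjusted p = 0.976). The other probe of Rpl22 gave 0.24. Rpl13a, which in humans also serves in a complex that silences inflammatory mRNAs, had a difference of 0.13 (SE 0.16, adjusted p = 0.931). Its 3 probes gave differences from -0.06 to 0.13. Rpl18 and Rpl37 had the narrowest ranges after Rps18, at 0.25 and 0.29, with differences of 0.05 and -0.01.

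The stalk of the large subunit recruits elongation factors through Rplp0, Rplp1 and Rplp2. Rplp0, often used as a reference gene in PCR, had 9.83, 9.72 and 9.64 on Lck-/- 1 to 3, against 9.80, 10.01, 9.47 and 9.78 on WT 1 to 4. WT arrays held both its highest and its lowest value, and the difference was -0.03 (SE 0.16, adjusted p = 0.990). Its 3 probes gave differences from -0.03 to 0.22. Rplp1 and Rplp2 had differences of 0.03 (SE 0.15) and 0.08 (SE 0.15).

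Paralogs are second copies that can replace a core protein. Of 8, 6 were tested, 4 were above 0 and none was called. Rpl36al, a copy of Rpl36a, had 7.39, 7.09 and 7.10 on Lck-/- 1 to 3, against 6.98, 6.94, 6.89 and 7.06 on WT 1 to 4. The groups did not overlap, by a margin of a few hundredths, and the difference was 0.23 (SE 0.14, adjusted p = 0.800). Rpl22l1, the copy of Rpl22, had a difference of 0.08 (SE 0.15, adjusted p = 0.967), beside the 0.06 and 0.24 of the 2 probes of Rpl22. Rps27l, a p53 target in human cells, had 7.08, 7.21 and 7.11 on Lck-/- 1 to 3 against 7.39, 7.62, 6.99 and 7.06 on WT 1 to 4. WT 1 and 2 were high and WT 3 and 4 low, on both sides of the Lck-/- arrays, and its difference was -0.13 (SE 0.18, adjusted p = 0.940). Rpl39l, a copy of Rpl39 best known from the testis, was dim, at -0.01, -0.19 and -0.04 on Lck-/- 1 to 3 against -1.12, 0.19, -0.97 and -0.11 on WT 1 to 4, and its difference of 0.42 had an SE of 0.33 (adjusted p = 0.852). Rps4l, named Rps4y2 in the files, had the third widest range, at 1.36, and a difference of -0.13 (SE 0.33, adjusted p = 0.978).

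Ribosomal proteins under other names included Fau, which is made as a fusion with a ubiquitin-like protein and had a difference of 0.08 (SE 0.16), and Rack1, which sits on the small subunit and had 0.02 (SE 0.17). None of 19 other genes with TOP mRNAs was called, and 15 of them were above 0 with a median of 0.12. The 2 with the smallest p were initiation factor genes: Eif4b, at 0.44 (SE 0.19, adjusted p = 0.694), and Eif3e, at 0.36 (SE 0.16).

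Ribosome assembly genes, which make and process rRNA and build the subunits, had a median of 0.07, with 23 of 36 above 0 and none called. Wdr43 and Ebna1bp2, both nucleolar, had differences of 0.44 (SE 0.28) and 0.32 (SE 0.17). On the array labelled Lck-/- 1 these 36 genes had a median deviation of -0.09, where the cytosolic ribosomal protein genes stood at 0.23. Myc, which drives ribosome synthesis in activated T cells, had 5.11, 5.55 and 5.52 on Lck-/- 1 to 3, against 5.16, 5.10, 4.92 and 5.52 on WT 1 to 4. Lck-/- 2 and 3 and WT 4 were high, that is, the 3 arrays with low Lck signal, and the difference by label was 0.22 (SE 0.19, adjusted p = 0.874). Proteins of the mitochondrial ribosome, a separate machine, had a median of -0.03, with 26 of 78 above 0 and none called.

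Differences between genes with and without a promoter match were slight. The median difference was 0.11 for the 13 tested genes with the pyrimidine start and 0.07 for the 49 without it. For the ETS letters it was 0.09 for 26 genes with them and 0.08 for 36 without, and for the YY1 letters it was 0.08 for 6 and 0.09 for 56.

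Probes of one gene did not always move together. Of 58 genes with several passing probes, 37 had probe differences within 0.2 of each other, 18 had probes of opposite sign, and 2 had opposite signs more than 0.5 apart: Rps27a and Rpl30. Rps27a encodes a fusion of ubiquitin with a small subunit protein. The parts of its 3 probes shown here lie at opposite ends of the transcript, and the capitals mark AATAAA, the polyadenylation signal (positions in mm9, minus strand, as the files give the whole probe).
Rps27a, start of the transcript, chr11:29447939-29447998: actgcgttagacagccgcgattccgctgca
Rps27a, inner probe, chr11:29445914-29445973: tgacaggcattactgtggcaagtgttgttt
Rps27a, last probe, chr11:29445842-29445901: tgtgtatgcgttAATAAAaagaaggaactc

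The probe at the start of the Rps27a transcript, beginning at base 42, had lower values on the arrays labelled Lck-/-. It was dim but well above background on all 7 arrays. It had -0.999, -1.17 and -1.37 on Lck-/- 1 to 3, against -0.32, -0.64, -0.66 and -0.69 on WT 1 to 4. All Lck-/- arrays were below all WT arrays, also the arrays whose Lck signal went against the label. The difference was -0.60 (SE 0.16, unadjusted p = 0.0056), which did not pass after adjustment over 20103 probes (adjusted p = 0.588). It ranged from -0.81 to -0.50 under 20 other settings. This probe was singled out after its values were seen, and it was the only one of the 187 ribosomal protein probes tested with an unadjusted p under 0.05, against 7.28% of all probes tested. The inner probe, which stands for the gene, had 9.51, 9.51 and 9.59 on Lck-/- 1 to 3 against 9.54, 9.79, 9.30 and 9.54 on WT 1 to 4, and a difference of -0.01 (SE 0.15). The last probe differed by 0.30 (SE 0.26), which came from Lck-/- 1 alone (8.99, 7.97 and 8.06 on Lck-/- 1 to 3, against 8.04, 8.30, 7.81 and 8.02 on WT 1 to 4).

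For Rpl30 the probe beginning at base 90 had a difference of -0.25 (SE 0.17), and those at bases 220 and 338 had 0.25 (SE 0.15) and 0.02 (SE 0.17). The first of these had 3.22, 3.19 and 3.15 on Lck-/- 1 to 3, against 3.68, 3.64, 3.25 and 3.19 on WT 1 to 4. WT 1 and 2 were high, and WT 3 and 4 stood near the Lck-/- arrays.

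The array labelled Lck-/- 1 stood out in how it spread the probes of a gene. The median range of the deviations of a gene's probes was 0.34 on Lck-/- 1, 0.17 on Lck-/- 2 and 0.17 on Lck-/- 3, against 0.12, 0.13, 0.17 and 0.09 on WT 1 to 4. Deviations are from the WT mean, which includes the WT arrays, so ranges are narrowed on WT arrays beside Lck-/- arrays. The contrast of Lck-/- 1 with Lck-/- 2 and 3 is free of this. In Rpl11, 2 overlapping probes that share the bases below deviated on Lck-/- 1 by 0.38 and 0.90. The first begins at base 518 of the transcript and has 35% GC; the second begins at base 534 and has 30% GC.
Rpl11, shared bases, chromosome 4, AATAAA in capitals: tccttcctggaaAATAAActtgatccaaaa

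The last probe of Rplp0 also holds AATAAA, and it deviated by 0.87 on Lck-/- 1, where the gene's other probes were at 0.26 and 0.07. Rps3a1, a small subunit protein, had a last probe at 1.12 and the others at 0.28 and -0.01. On Lck-/- 2 and 3 the last probes of Rplp0, Rps3a1, Rps27a and Rpl11 stood between -0.45 and 0.12. These genes are examples with wide probe ranges on Lck-/- 1, from 0.67 in Rpl11 to 1.37 in Rps27a. Smaller deviations on the other arrays thus follow in part from the choice. Last and earlier probes were not compared over all genes with several probes.

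On Lck-/- 1 the probe with less GC was more often the higher one. On WT 2, with a narrow spread of 0.13, it was so nearly as often. In 38 of 54 genes the probe with less GC deviated more on Lck-/- 1 than the one with more GC, against 15 and 21 on Lck-/- 2 and 3 and 18, 35, 28 and 24 on WT 1 to 4. Rps24, among the 54, had no value for this on Lck-/- 1. Ribosomal protein probes with up to 38% GC had a median deviation of 0.39 on Lck-/- 1 (54 probes). Those with 39 to 47% had 0.20 (90 probes), as did those with 48% or more (43 probes), so only the lowest class stood apart. Those with AATAAA, 56 of 187 (29.9%, against 11.8% of all passing probes), had 0.33, and those without it 0.19. Over all passing probes the order by GC ran the other way on that array, at 0.01 for up to 38% and 0.19 for 48% or more. Other probes above the 90th percentile of mean signal stood at 0.30 for up to 38% and 0.28 for 48% or more. Of these bright probes 21.0% hold AATAAA, with a median deviation of 0.33, and those without it stood at 0.27. The part of base composition in the shift of the members on Lck-/- 1 was not tested.

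Probes can also read relatives. Of the member probes, 12 are not placed on their gene's chromosome (1 of these has no mapped position), and 17 list accessions of more than 1 RefSeq gene, so signal of near-identical copies may be included. Rps27, on chromosome 3, has 4 probes that the files place on chromosome 9, and all 4 also list Rps27rt. Their differences lay between 0.07 and 0.24. In Rplp0, 2 probes 7 bases apart overlap by 53 bases and differ at 5 of them. From the first base of the probe that begins at base 1018, the substitutions in the other are A15G, T17A, A31G, C42T and C51T. The lines give the same 30 positions of both, from position 12 to 41, with differing bases in capitals.
Rplp0, probe at base 1018: gtcAgTggaatcagatgagAatatgggatt
Rplp0, probe at base 1025: gtcGgAggaatcagatgagGatatgggatt
The files place both on chromosome 5, at chr5:116013397-116013456 and chr5:116013404-116013463 (mm9). Their differences were 0.07 and -0.03 (SE 0.16 each), opposite in sign but both smaller in size than their SE. The gene's other probe had a difference of 0.22.

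In a probe of Rpl23, a large subunit protein, spot noise was small beside the spread between arrays. The probe is printed at 10 spots, and their SD within an array was 0.016 to 0.067. The SD of its array means was 0.15 over the 3 Lck-/- arrays and 0.22 over the 4 WT arrays. Spot noise of the other member probes was not measured.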

How the data were processed

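Total RNA (integrity number above 8, 50 ng) was labelled with Cy3 and hybridised to Agilent one-colour arrays, per the labels' protocols. The authors deposited 1 scanner file per array with processed signal intensity, background-subtracted and detrended by Feature Extraction per the file headers, with probe positions in mm9. The deposited value table is on a log2 scale; how it was centred is not given in these sources, and it served as an alternative. Groups came from the sample titles.

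Each value is log2 of the processed signal minus its array's 75th percentile over non-control spots. Outlier-flagged spots were dropped, and the remaining spots of each probe were averaged. A probe passed if well above background on 3 of 7 arrays or more. Of 55681 probes, 33184 had a gene name, 27235 of them through RefSeq accessions. A gene is its probe of highest mean over the 7 arrays. Groups were compared with limma 3.58.1 (R 4.3.3), two-sided, with Benjamini-Hochberg adjustment over all genes or probes and a threshold of 0.05. The fit was tested on simulated data with independent values and no shift shared by an array, so that test does not cover the shared shifts described above. The levels of different probes were not compared.

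Members and gene lists were chosen with earlier results of these data known. Genes named are a fixed set (Rplp0, Rps6, Rpl5, Rpl11, Rpl22, Rpl22l1, Rps19, Rpl13a, Rps27l, Rps27a, Fau and Rack1; another gene of the set is not reported here), the 4 smallest p per role, the 3 widest and 3 narrowest ranges, genes with probes of opposite sign over 0.5 apart, 2 genes per further list, Lck and Myc; other genes were named after their values were seen. Same-numbered samples had correlations of 0.102, 0.061 and -0.029, so numbers were not taken as pairs. B cell (3 of 8 tested) and myeloid markers (12 of 15 tested) had mean deviations from -0.51 to 0.77 on single arrays.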

Additional observations from a re-analysis of the deposited data

How the results depend on the processing

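No ribosomal protein gene was called under the main setting or any of 21 others, and for the 28 named members between 0 and 13 differences changed sign, most with median centring; none of these differences had passed the test. The median difference of 0.08 moved to -0.13 with median centring, and ranged from 0.01 to 0.14 when one array was left out. The count over all genes was 0, and 1 with array weights (Timd2). When one array was left out it was 0 to 1, and for probes 0 to 2. The gene was Xist, called without WT replicate 1, with a difference of 7.13 (SE 0.40). Whether the sex of the mice differed between the groups was not tested. Without both arrays whose Lck signal goes against the label, 60 genes and 78 probes were called, none a ribosomal protein; the cause was not tested. With the replicate number as a block, 1 gene (Klra15) and 1 probe were called and the median over the ribosomal protein genes was 0.08; the numbers do not pair the samples. The mean of a gene's probes as an alternative gives no value for single probes. The 3 and 4 arrays per group, with a median SE of 0.15 over the ribosomal protein genes, limit how small a difference could be called.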
